A study of Homo sapiens with 30 samples.

Results

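The genes described here are 33 interferon-induced and antigen presentation genes, out of 61597 genes listed in the deposited table of LX2 cells. They were chosen by symbol, through the Ensembl identifier of each row, and not by a rule on measured values. Earlier results of these data were known when the choice was made. All 33 were found. Of these, 32 reached 1 CPM (reads scaled to the same total in every library) in at least 5 libraries and were tested, together with 15137 genes in all. The untested member was IFITM1, which had no read in 21 of 30 libraries and a highest level of 1.56 CPM.

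LX2 is an established line derived from hepatic stellate cells, the vitamin A storing cells of the liver that turn into matrix-producing myofibroblasts in fibrosis. All cultures came from that 1 line, grown in DMEM with serum. Groups are named by pretreatment and treatment. Veh stands for vehicle, OLA for oleic acid (an ω9 fatty acid with 1 double bond), DHA for docosahexaenoic acid (a long ω3 fatty acid) and BTC for betacellulin, a ligand of ErbB receptors. The groups were Veh+Veh, Veh+BTC, OLA+Veh, OLA+BTC, DHA+Veh and DHA+BTC, with 5 libraries each. Fatty acids were used at 50 µM, bound to 20 µM albumin, in 2 treatment cycles of 48 h, and another part of the protocol gives 96 h. BTC was used at 20 ng/ml for 72 h, with 1% serum in the medium. The albumin, the serum and these times are listed for every library, the vehicle libraries included. Every group has 1 library in each of 5 labelled experiments, and the number after a group name is the experiment. No interferon, virus or other immune stimulus is named for any group, so the values are basal levels in these cultures.

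Type I interferons signal through the receptor chains IFNAR1 and IFNAR2 and the kinases JAK1 and TYK2. The signal leads to the factor ISGF3, which holds STAT2 and IRF9 and acts on interferon-stimulated response elements in promoters. Many of the genes so induced encode proteins that sense or block foreign RNA and viruses. Others load peptides onto class I molecules: the immunoproteasome cuts proteins, the TAP transporter moves the peptides into the endoplasmic reticulum, and HLA heavy chains with B2M carry them to the surface. Interferon gamma acts on a second kind of element, and stellate cells are known to respond to both kinds of interferon.

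Promoter sequences are shown because several of these genes had the same order of levels across experiments. RefSeq windows on GRCh38.p14, from 250 bases before to 50 bases after a start site, were found for 29 of 33 members, and IFIT2, IFITM2, IRF7 and OAS2 had no entry. The motif searched was GAAA, any 2 bases, then GAAA again, the core of the response element bound by ISGF3 and by IRF factors, on both strands. This GAAA pair was present for 18 of 29 members (62.1%) and for 4.38% of 27305 genes, counting any promoter entry of a gene, or 3.57% of 35116 single promoters of the same length. The letters TTCNNNGAA, the palindrome bound by STAT dimers, were present for 10 of 29 members (34.5%), for 9.38% of genes and in 7.66% of single promoters. Both motifs hold the bases GAA and can overlap. The windows below belong to members on which the results turn, and the capitals mark GAAA pairs on either strand. IFIT1 lies at chr10:89392373-89392672 on the plus strand, IFIT3 at chr10:89327747-89328046 (plus), ISG15 at chr1:1013247-1013546 (plus), IFITM3 at chr11:320811-321110 (minus), TAP1 at chr6:32853655-32853954 (minus) and PSMB9 at chr6:32853942-32854241 (plus).
IFIT1: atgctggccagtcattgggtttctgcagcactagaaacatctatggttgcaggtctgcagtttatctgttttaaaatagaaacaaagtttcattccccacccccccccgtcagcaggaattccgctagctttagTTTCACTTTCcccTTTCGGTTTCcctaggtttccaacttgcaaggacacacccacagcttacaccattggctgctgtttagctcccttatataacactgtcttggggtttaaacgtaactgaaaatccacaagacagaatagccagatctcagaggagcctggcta
IFIT3: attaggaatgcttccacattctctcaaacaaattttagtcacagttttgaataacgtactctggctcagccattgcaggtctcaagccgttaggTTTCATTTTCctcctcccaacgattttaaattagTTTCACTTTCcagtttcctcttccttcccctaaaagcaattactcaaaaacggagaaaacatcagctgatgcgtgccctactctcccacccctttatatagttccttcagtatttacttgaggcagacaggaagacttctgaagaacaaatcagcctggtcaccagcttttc
ISG15: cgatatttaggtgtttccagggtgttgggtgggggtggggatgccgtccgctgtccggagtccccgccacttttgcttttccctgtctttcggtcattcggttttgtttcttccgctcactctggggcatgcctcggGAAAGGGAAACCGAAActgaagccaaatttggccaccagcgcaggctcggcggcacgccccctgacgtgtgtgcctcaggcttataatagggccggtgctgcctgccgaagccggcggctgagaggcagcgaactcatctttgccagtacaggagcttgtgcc
IFITM3: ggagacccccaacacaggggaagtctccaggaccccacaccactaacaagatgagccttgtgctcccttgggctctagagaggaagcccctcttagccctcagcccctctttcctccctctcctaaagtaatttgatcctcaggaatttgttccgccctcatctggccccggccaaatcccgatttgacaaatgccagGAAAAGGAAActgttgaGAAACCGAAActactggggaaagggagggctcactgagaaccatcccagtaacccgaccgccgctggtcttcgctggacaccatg
TAP1: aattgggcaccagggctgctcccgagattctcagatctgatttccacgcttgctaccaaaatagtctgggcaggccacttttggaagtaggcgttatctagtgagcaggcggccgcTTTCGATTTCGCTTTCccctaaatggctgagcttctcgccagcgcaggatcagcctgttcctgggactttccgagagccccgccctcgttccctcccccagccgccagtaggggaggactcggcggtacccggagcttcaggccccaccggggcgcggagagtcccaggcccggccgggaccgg
PSMB9: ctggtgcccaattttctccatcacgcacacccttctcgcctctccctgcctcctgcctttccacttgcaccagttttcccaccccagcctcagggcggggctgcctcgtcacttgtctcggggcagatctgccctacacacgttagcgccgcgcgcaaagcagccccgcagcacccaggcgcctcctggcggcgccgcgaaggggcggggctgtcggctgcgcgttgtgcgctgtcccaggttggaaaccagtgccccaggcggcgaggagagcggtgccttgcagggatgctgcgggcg
Matches ended 93 and 106 bases before the start site in IFIT1 and 112 and 146 bases before it in IFIT3, both in the reverse orientation. In ISG15 they overlapped and ended 97 and 103 bases before the start site, and in IFITM3 they ended 25 and 42 bases before it. TAP1 and PSMB9 are transcribed away from each other, with start sites 488 bases apart and windows that share 13 bases. The TAP1 window held 2 overlapping matches, and neither the PSMB9 window nor that of STAT2 held one. A match is a description of these letters and not a measured binding site.

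The libraries held 1245182 to 9490142 reads. The DHA arm was shallower (median 3268410 reads, n = 10) than the vehicle arm (median 3921120, n = 10), and the 3 libraries with the fewest reads, called the 3 shallowest below, were DHA+BTC 5, DHA+Veh 5 and then DHA+BTC 4. For a gene without reads the limit, set at 3 reads, was 2.41 CPM at the lowest depth and 0.316 CPM at the highest, for counting error only. Of 13 stellate and fibroblast markers, 11 had a median of at least 1 CPM, among them COL1A1 and SPARC, while LRAT and DES had a median of 0. Of 12 leukocyte markers, 4 had a median of at least 1 CPM: CD14 (11.6 CPM), CD68 (8.29), CSF1R (2.42) and PTPRC (1.33). CD3E and MS4A1 had no read in any library. The summed level of those 12 ran from 13.9 to 97.0 CPM over all libraries. In bulk samples fewer cells of a type and less RNA per cell cannot be told apart. Deviations from the group means were closest to a library of the same experiment for 27 of 30 libraries, and the exceptions were Veh+BTC 1, DHA+BTC 1 and Veh+BTC 2. DHA+BTC 1 and Veh+BTC 2 were closest to each other (correlation 0.696), and whether labels were exchanged among these 3 was not tested. The averaged comparisons and the comparison between experiments were repeated without them. The comparisons of 5 libraries against 5 and the interactions were not.

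Levels are in CPM from 3′ tags, which count transcript ends, and genes are described one by one without ranking their levels against each other. The peptide-presenting chains were abundant, with B2M between 2022 and 9121 CPM and HLA-B between 1179.5 and 3757 CPM. HLA-C, a further class I heavy chain, ran from 12.3 to 161 CPM. The immunoproteasome subunits PSMB9 and PSMB8 ran from 89.9 to 384 CPM and from 35.6 to 271 CPM, and the peptide transporter chain TAP1 from 23.3 to 113 CPM. The membrane proteins BST2 (tetherin, which holds budding virus at the cell surface), IFITM3 and IFITM2 (which hinder virus entry) were between 114 and 948 CPM, 152 and 530 CPM, and 48.4 and 176 CPM. All of these genes had reads in every library.

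The remaining effectors are mostly cytoplasmic. ISG15, a ubiquitin-like modifier, ran from 58.7 to 315 CPM and IFIT3, of the family that binds foreign RNA, from 1.31 to 66.5 CPM. IFIT1, of the same family, ran from 0.650 to 32.7 CPM, and MX1, a dynamin-like GTPase that traps viral capsids, from 2.44 to 44.4 CPM. IFI44L, IFI44, XAF1, IFIH1, IFI27 and IFI6 were near the lower limit, with medians between 0 and 1.87 CPM, and IFI6 had no read in 19 of 30 libraries. The transcription factors were all present: STAT2 between 17.5 and 82.7 CPM, IRF1 between 119 and 357 CPM, IRF9 between 0.405 and 13.3 CPM and IRF7 between 0.285 and 13.6 CPM.

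The experiment was the label along which these genes differed most. Between experiments, 30 of 32 members tested differed (limma F-test with the 6 groups as terms, adjusted p under 0.05), against 71.4% of all genes. The members that were not called were IFI6 and IFI27, both near the lower limit. The median share of a gene's variance that lay between experiments was 63.6% for members and 47.7% for all genes, and the median share between groups was 6.44% and 11.3%. Experiment means spanned more than 1 on the log2(CPM + 1) scale for 27 members (84.4%) and for 59.5% of all genes.

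**Figure D1:**
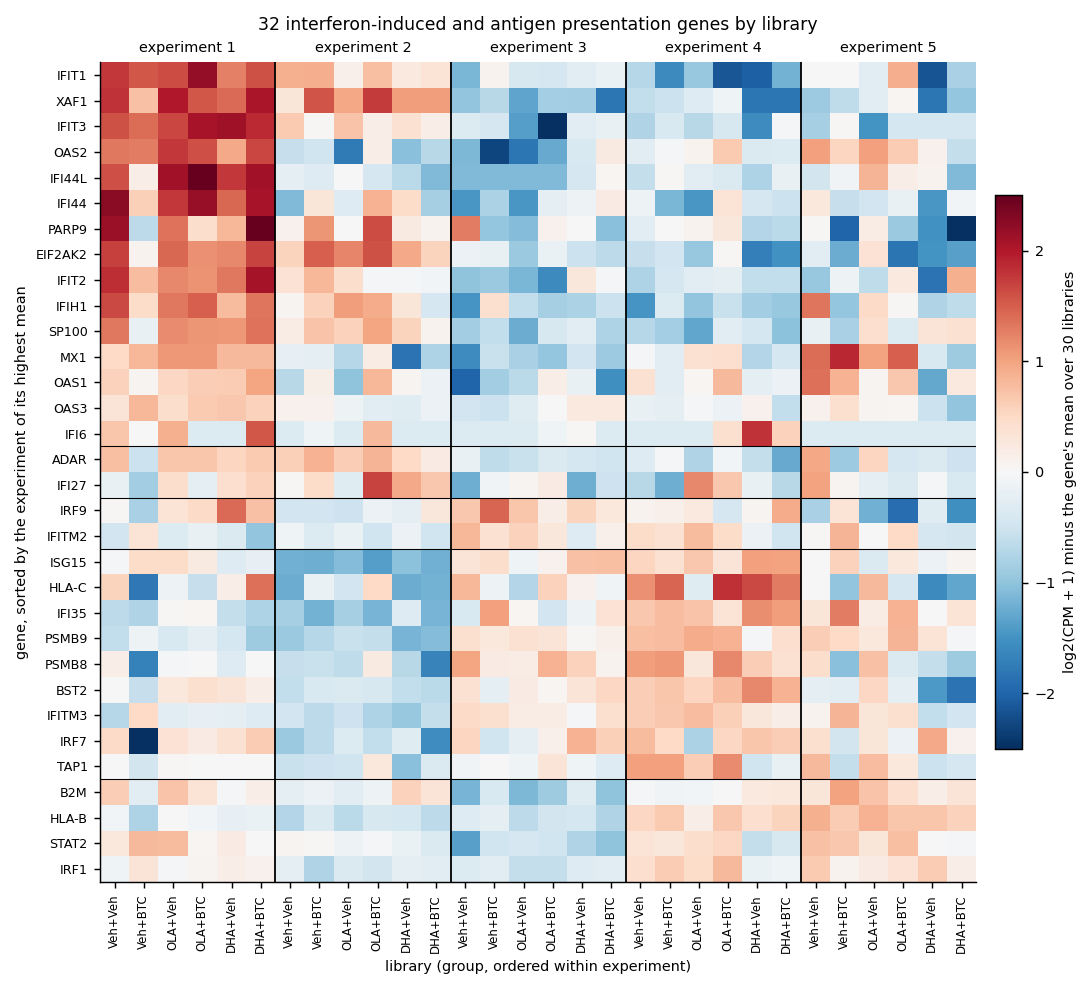
Level of the 32 tested members (rows) in 30 libraries (columns, ordered by experiment and group), as log2(CPM + 1) minus the gene's mean over all libraries. Genes are sorted by the experiment of their highest mean, and the top 15 rows, except IFI6, are red in most libraries of experiment 1, while ISG15 is blue in all libraries of experiment 2.

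IFIT1 and IFIT3 were highest in experiment 1. IFIT1 was between 16.6 and 32.7 CPM (median 21.5) in the 6 libraries of experiment 1, and its levels in all other libraries ran from 0.650 to 12.9 CPM. All 6 libraries of experiment 1 therefore lay above every other library, whatever the fatty acid or BTC. IFIT3 had 40.2 to 66.5 CPM (median 52.3) in experiment 1 and 1.31 to 24.4 CPM elsewhere, again with no overlap. Such a separation upward in experiment 1 was seen for 2 of 32 members (6.25%) and for 0.132% of all genes, and the reverse for no member and 0.0132% of all genes. The IFIT1 mean was 22.8 ± 5.42 CPM (SD, n = 6) in experiment 1, 10.0 ± 2.61 in experiment 2 and 1.90 ± 1.12 in experiment 4, an 8.60-fold span on the log2(CPM + 1) scale (limma adjusted p = 2.13e-08).

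Ranked by the mean of log2(CPM + 1), 15 members (46.9%) were highest in experiment 1, as did 23.8% of all genes. Beside IFIT1 and IFIT3 these were IFIT2, XAF1, OAS1, OAS2, OAS3, IFI44, IFI44L, EIF2AK2, IFIH1, SP100, PARP9, MX1 and IFI6. IFI44L had 6.87 ± 3.32 CPM (SD, n = 6) in experiment 1 and means between 0.307 and 1.20 CPM in the others. OAS2, which makes the oligoadenylates that switch on RNase L, had 16.6 ± 3.57 CPM in experiment 1 and 2.53 ± 2.31 in experiment 3. XAF1, an antagonist of the apoptosis inhibitor XIAP, separated by experiment differently, in a split that was not counted over all genes. It was between 3.30 and 13.4 CPM in every library of experiments 1 and 2 and between 0 and 2.63 CPM in every library of experiments 3, 4 and 5. EIF2AK2, the double-stranded RNA-activated kinase PKR, shared that order, with means of 55.9 and 49.1 CPM in experiments 1 and 2 and between 12.7 and 16.4 CPM in the others. Experiment 2 held the highest mean of 38.5% of all genes and of 6.25% of members. With another scaling (median of ratios, or quantile normalization), 12 of the 15 kept their highest mean in experiment 1, and without Veh+BTC 1, DHA+BTC 1 and Veh+BTC 2, 14 did. Under both scalings the exceptions were MX1 (highest in experiment 5), OAS1 (experiment 5 or 4) and IFI6 (experiment 4). In plain CPM the MX1 mean was also higher in experiment 5 (24.5) than in experiment 1 (21.4). The share of all genes under those scalings was not counted.

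A second set was highest in experiment 4, and all of it except BST2 was lowest in experiment 2. It held 9 members (28.1%, against 10.8% of all genes): ISG15, IFI35, IFITM3, BST2, IRF7, HLA-C and the 3 genes TAP1, PSMB8 and PSMB9 of peptide generation and transport, and all 9 kept that place under both other scalings. ISG15 was between 58.7 and 74.9 CPM in experiment 2 and between 120.0 and 315 CPM in all other libraries, with no overlap. How many of all genes separate as ISG15 does, or as PSMB9 does below, was not counted, and 71.4% of all genes differed between experiments. PSMB9 had the smallest adjusted p of any member (limma, 1.58e-10). Its 6 levels in experiment 1 (108 to 184 CPM, median 152) and those of experiment 2 (89.9 to 137 CPM) all lay below those of experiments 3, 4 and 5 (196 to 384 CPM). IFIT genes and PSMB9 thus had different orders over the same 30 libraries.

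**Figure D2:**
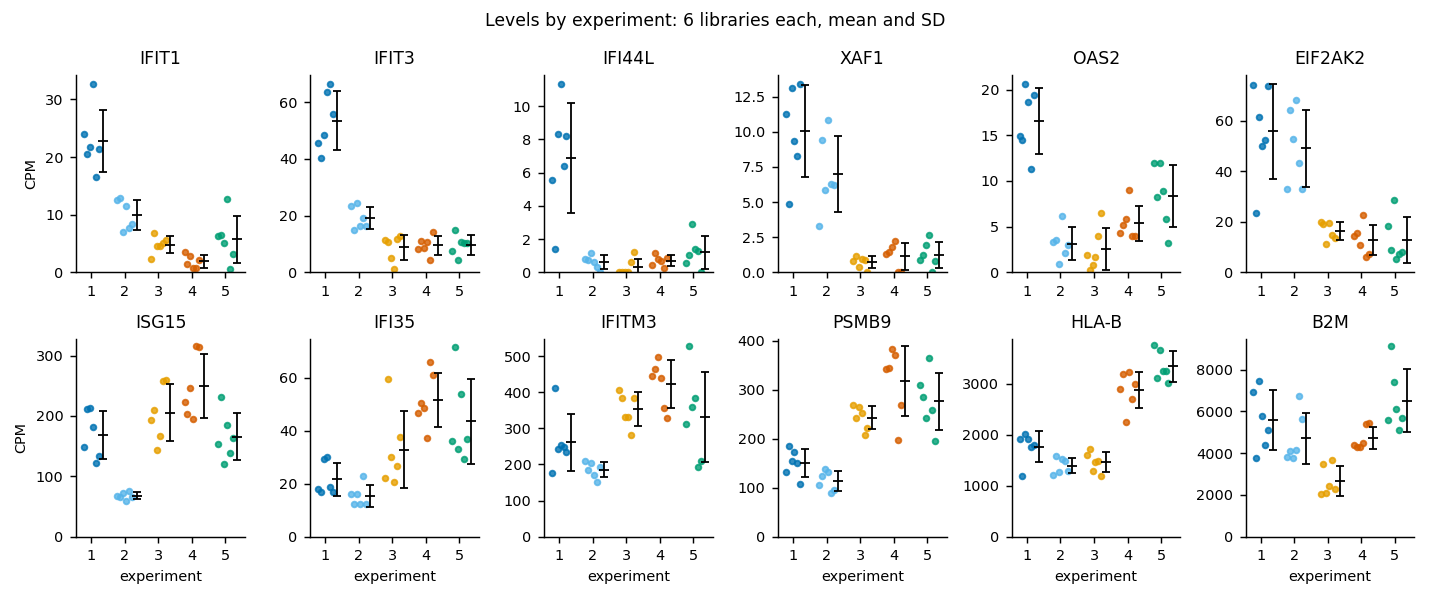
CPM of 12 members in the 6 libraries of each experiment (points), with the mean and SD (black). The upper row shows effectors that were highest in experiment 1, such as IFIT1 at 22.8 ± 5.42 CPM, and the lower row shows members highest in experiment 4 or 5, such as PSMB9.

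The remaining members had other orders. HLA-B was between 2255 and 3757 CPM in experiments 4 and 5 and between 1179.5 and 2023 CPM in experiments 1, 2 and 3, with no overlap. Neither this split nor that of B2M, given next, was counted over all genes. B2M, the light chain of every class I molecule, was between 2022 and 3673 CPM in experiment 3 and between 3774 and 9121 CPM in all others. STAT2 had its lowest mean, 27.8 ± 6.68 CPM (SD, n = 6), in experiment 3 and its highest, 63.6 ± 15.4, in experiment 5, where HLA-B and B2M also had their highest mean, as did IRF1 on the log scale only. Under other scalings experiment 4 was highest for IRF1 (both) and HLA-B (median of ratios), and experiment 1 for B2M (quantile). ADAR, which edits adenosines in double-stranded RNA, had means of 195 and 207 CPM in experiments 1 and 2 and between 99.0 and 138 CPM in the others. That order was not counted over all genes, of which 38.5% were highest in experiment 2.

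Motif content can be set beside these orders as a description. Of the 13 members with a promoter window and their highest mean in experiment 1, 10 held the GAAA pair and 2 held TTCNNNGAA. Of the 15 highest in another experiment, 7 held the GAAA pair and 7 held TTCNNNGAA. The GAAA pair in the IFIT1 and IFIT3 windows was also in those of ISG15, IFITM3 and TAP1, which had another order across experiments.

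Some genes that carry the interferon signal also differed between experiments, in a share of their list close to that of all genes. IFNAR1 had means of 124 and 89.2 CPM in experiments 1 and 2 and of 20.0, 20.2 and 49.4 CPM in experiments 3, 4 and 5 (limma adjusted p = 3.13e-12). The kinase JAK1 had means of 104, 118, 42.2, 29.7 and 49.9 CPM in experiments 1 to 5. Both were thus higher in experiments 1 and 2 than in the others. Of all genes, 23.8% had their highest mean in experiment 1 and 38.5% in experiment 2. How many of all genes had both of these experiments above the others was not counted. In this list of sensing and signalling genes, 20 of 27 tested differed between experiments (74.1%), as did 43 of 51 other interferon-induced genes (84.3%) and 22 of 31 other antigen presentation genes (71.0%), against 71.4% of all genes. The interferon genes IFNA1, IFNB1, IFNG and IFNL1 had no read in any library. The summed level of the 12 leukocyte markers also moved, with medians of 19.2, 19.7, 32.1, 46.6 and 52.9 CPM in experiments 1 to 5. The summed endothelial markers had medians of 7.01, 3.68, 2.92, 3.87 and 2.95 CPM and the summed stellate markers 2657, 3786, 3560, 2228 and 3536 CPM. OLA+BTC 2 had the highest leukocyte and endothelial sums, 97.0 and 46.3 CPM. The part of these markers in the differences was not tested.

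Single libraries departed from their experiment for several members at once. These examples were picked after their values were seen. In Veh+BTC 1, EIF2AK2 was at 23.7 CPM against 50.1 to 74.4 CPM in the other 5 libraries of experiment 1, PSMB8 at 35.6 against 93.1 to 132 CPM, and HLA-C at 12.3 against 29.9 to 118 CPM. The membrane protein IFITM3 went the other way there, with 412 CPM against 178 to 254 CPM. In experiment 5, ADAR was at 264 and 195 CPM in Veh+Veh 5 and OLA+Veh 5 and between 71.4 and 105 CPM in the other libraries. Both Veh+BTC 1 and the experiment 5 libraries enter the arms compared next.

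DHA was associated with lower IFITM2, PSMB9, STAT2 and IFITM3, averaged over the presence of BTC. These were 4 of 32 members (12.5%), all lower, in a comparison that called 10.7% of all genes, 8.38% lower and 2.33% higher. The share of members called was near that background. Of the members, 20 had a negative and 12 a positive difference, with a median of -0.07, and over all genes 66.4% were negative with a median of -0.13 (log2 scale). At an unadjusted p under 0.05 there were 6 members. The summed leukocyte markers had a median of 28.8 CPM with DHA (13.9 to 63.4) and 36.9 CPM with vehicle (15.3 to 62.9), and their part in these differences was not tested.

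IFITM2 was between 69.5 and 176 CPM (median 125, mean 119 ± 36.9, SD, n = 10) without fatty acid and between 48.4 and 106 CPM (median 73.5, mean 76.1 ± 15.4) with DHA. Most DHA libraries lay below most vehicle libraries, and the arms overlapped between 69.5 and 106 CPM. The difference was -0.61 on the log2(CPM + 1) scale (95% interval -0.90 to -0.32), 1.52-fold lower, with a limma adjusted p of 0.00529. It was negative in 5 of 5 experiments, at -0.62, -0.09, -0.70, -0.73 and -0.89, so experiment 2 showed little of it. The call was kept in 46 of 48 alternative settings and lost when the 3 shallowest libraries were left out (adjusted p = 0.0877) or the experiment was not a block (0.182).

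PSMB9, a catalytic subunit of the immunoproteasome, was between 105 and 345 CPM (median 255, mean 234 ± 91.5, SD, n = 10) without fatty acid and between 89.9 and 269 CPM (median 196, mean 179 ± 65.3) with DHA. The arms overlapped widely because of the differences between experiments described above. Within experiments its difference was the most even of the 4, at -0.29, -0.30, -0.25, -0.58 and -0.40. The mean difference was -0.36 (95% interval -0.58 to -0.15, limma adjusted p = 0.0241). The call was lost in 15 of 48 alternatives, among them edgeR (0.278) and DESeq2 (0.232) and leaving out the library Veh+Veh 5 (0.0524) or DHA+Veh 4 (0.0587), where the differences were between -0.34 and -0.30.

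STAT2, the ISGF3 subunit named above, was between 17.5 and 82.7 CPM (median 56.5, mean 55.3 ± 20.2, SD, n = 10) without fatty acid and between 22.6 and 53.6 CPM (median 38.5, mean 38.5 ± 9.85) with DHA. Every DHA library except DHA+Veh 1 lay at or below 46.8 CPM. The difference was -0.45 (95% interval -0.73 to -0.16, limma adjusted p = 0.034), negative in 4 of 5 experiments and 0.05 in experiment 3. IFITM3 was between 178 and 530 CPM (median 396, mean 353 ± 125) without fatty acid and between 152 and 385 CPM (median 241, mean 258 ± 77.6) with DHA. Its difference was -0.41 (95% interval -0.68 to -0.15, limma adjusted p = 0.0374), negative in 5 of 5 experiments but from -0.17 in experiment 1 to -1.02 in experiment 5. In experiment 1 the negative sign rested on the library Veh+BTC 1, at 412 CPM. Veh+Veh 1 was at 178 CPM, below DHA+Veh 1 (249 CPM) and DHA+BTC 1 (233 CPM). The STAT2 call was lost when any one of 9 libraries was left out (Veh+Veh 2, Veh+Veh 4, Veh+Veh 5, Veh+BTC 1, Veh+BTC 5, DHA+Veh 4, DHA+Veh 5, DHA+BTC 4 or DHA+BTC 5), with adjusted p-values between 0.0527 and 0.0795 and differences of -0.45 to -0.38. The IFITM3 call was lost without any one of 10 (Veh+Veh 2, Veh+Veh 3, Veh+Veh 4, Veh+Veh 5, Veh+BTC 1, Veh+BTC 5, DHA+Veh 3, DHA+Veh 5, DHA+BTC 4 or DHA+BTC 5), with 0.0541 to 0.0917 and differences of -0.41 to -0.35.

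**Figure D3:**
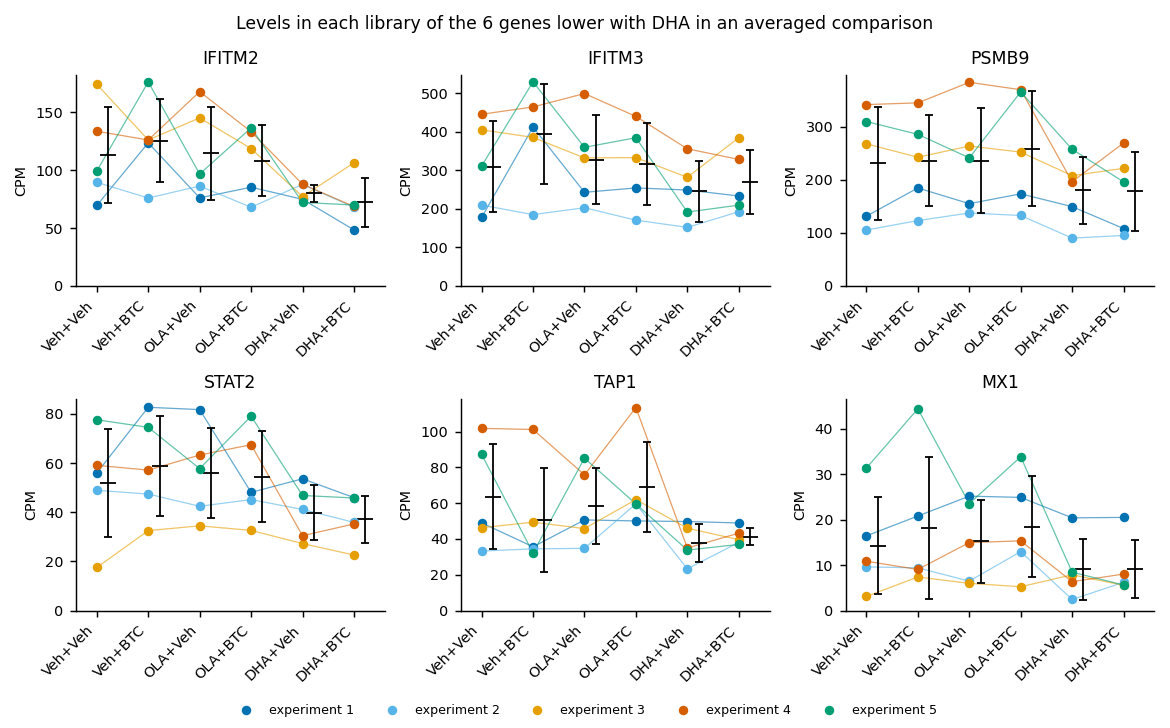
CPM of IFITM2, IFITM3, PSMB9, STAT2, TAP1 and MX1 in each of 30 libraries by group, with lines joining the libraries of an experiment (colour) and the mean and SD of 5 libraries in black. The DHA+Veh and DHA+BTC points of IFITM2 lie between 48.4 and 106 CPM, while the other groups reach 176 CPM.

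The fifth smallest p belonged to MX1, at 16.2 ± 12.8 CPM (SD, n = 10) without fatty acid and 9.14 ± 6.20 with DHA, a difference of -0.65 (95% interval -1.16 to -0.14, limma adjusted p = 0.0879). Its differences by experiment were 0.14, -1.08, 0.38, -0.42 and -2.28, so that experiments 2 and 5 carried most of it, and without the library DHA+Veh 3 it passed the threshold (adjusted p = 0.0364). IRF7, the factor that amplifies interferon production, had the highest positive difference of any member, 0.54 (95% interval -0.02 to 1.11, limma adjusted p = 0.22). Its value of 1.56 in experiment 1 includes the library Veh+BTC 1, where IRF7 was at 0.285 CPM. For members outside the called set, ISG15 differed by 0.04 (-0.24 to 0.33), HLA-B by -0.06 (-0.30 to 0.18), B2M by 0.11 (-0.21 to 0.44) and IRF1 by -0.07 (-0.33 to 0.18).

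The 4 calls depended on scaling and on shallow libraries. With median-of-ratios scaling, with quantile normalization, and with the read-based edgeR and DESeq2, IFITM2 was the only member called. Over all genes the median was -0.13, and it was -0.05 after median-of-ratios scaling and -0.00183 after quantile normalization. The genes lower and higher numbered 1269 and 352, against 754 and 530 (median of ratios), 661 and 520 (quantile), 497 and 454 (edgeR) and 734 and 636 (DESeq2). No member was called without the 3 shallowest libraries (3.80% of all genes) or without the block (0.687%). Without the block the differences are the same by construction and only their errors change, whereas without the 3 shallowest libraries IFITM2 was at -0.49, PSMB9 at -0.38, STAT2 at -0.38 and IFITM3 at -0.21, the last over 1.5 times nearer to 0. Without Veh+BTC 1, DHA+BTC 1 and Veh+BTC 2, a choice made after seeing the data, IFITM2 and IFITM3 were called. Reads of IFITM2 and IFITM3 may be hard to assign: of the 75-base windows in the last 400 bases of their transcripts, 7.67% and 14.1% occur in the other gene. In GENCODE 29, exons of PSMB9 overlap PSMB8 on the opposite strand and PSMB8-AS1 on the same strand. Those of IFITM2 overlap IFITM1 on the same strand. Of the 33 members, 18 overlap another gene on either strand, and strand-aware counting is not stated for these data.

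DHA and OLA, given at the same dose and for the same times, differed in 5 of 32 members (15.6%), against 11.4% of all genes (8.96% lower and 2.40% higher). All 5 were lower with DHA: PSMB9, TAP1, IFITM2, STAT2 and MX1. The median difference of members was -0.28 and that of all genes was -0.17, and 8 members had an unadjusted p under 0.05. With other scalings or tools the 1356 lower and 363 higher genes became 751 and 515 (median of ratios), 648 and 532 (quantile), 481 and 484 (edgeR) and 747 and 664 (DESeq2). These values share the DHA libraries with the comparison above and are not a second support of it.

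PSMB9 was between 133 and 384 CPM (median 247, mean 247 ± 98.4, SD, n = 10) with OLA, and the difference was -0.46 (95% interval -0.67 to -0.24, limma adjusted p = 0.00515). It was negative in 5 of 5 experiments, from -0.71 to -0.26. TAP1 is the neighbour of PSMB9 on chromosome 6 and a chain of the peptide transporter. It was between 34.8 and 113 CPM (median 59.6, mean 63.7 ± 22.7) with OLA and between 23.3 and 49.7 CPM (median 38.8, mean 39.5 ± 7.98) with DHA, a difference of -0.63 (95% interval -0.99 to -0.28, limma adjusted p = 0.0168). By experiment it was -0.03, -0.60, -0.31, -1.23 and -0.99. Experiments 4 and 5 thus carried most of the TAP1 difference, and those hold the 3 shallowest libraries, without which it was -0.47 (adjusted p = 0.207). Against vehicle the TAP1 difference was -0.41 (limma adjusted p = 0.131).

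IFITM2 had 111 ± 33.6 CPM (SD, n = 10) with OLA, and the difference was -0.51 (95% interval -0.80 to -0.22, limma adjusted p = 0.0182). For STAT2 the OLA level was 55.2 ± 17.5 CPM and the difference -0.49 (95% interval -0.77 to -0.21, limma adjusted p = 0.0196). MX1 had 16.8 ± 9.71 CPM with OLA and a difference of -0.80 (95% interval -1.31 to -0.29, limma adjusted p = 0.0347), positive only in experiment 3 (0.21). The MX1 call was lost when any one of 10 libraries was left out (OLA+Veh 1, OLA+Veh 4, OLA+Veh 5, OLA+BTC 2, OLA+BTC 4, OLA+BTC 5, DHA+Veh 2, DHA+Veh 4, DHA+Veh 5 or DHA+BTC 5), with adjusted p-values of 0.0528 to 0.0855 and differences of -0.79 to -0.62, while no single library ended the other 4 calls. XAF1 (-0.70, limma adjusted p = 0.0596) and PSMB8 (-0.50, 0.10) were negative in 5 of 5 experiments without passing the threshold. The number called was 1 with median-of-ratios scaling and with DESeq2 (TAP1), 2 with quantile normalization (PSMB9 and TAP1) and 0 with edgeR. It was 7, among them these 5, without the 3 libraries closest to another experiment, 1 without experiment 5 or the 3 shallowest libraries (PSMB9), and 0 without experiment 4 or without the block. Without the 3 shallowest libraries MX1 was at -0.42, over 1.5 times nearer to 0.

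**Figure D4:**
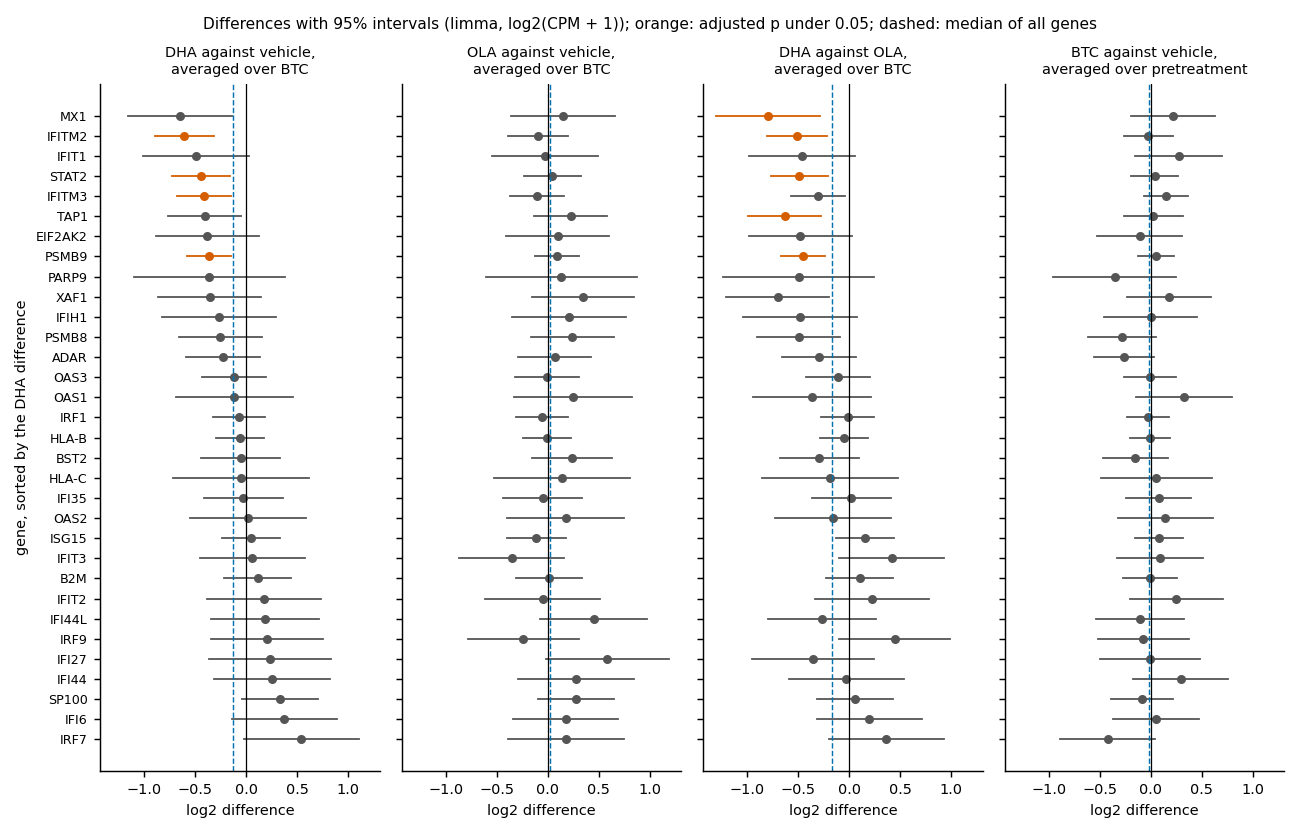
Difference and 95% interval of each of 32 members (rows) on the log2(CPM + 1) scale in 4 averaged comparisons (panels), with called members in orange and the median of all genes as a dashed line. Calls appear only in the DHA panels, 4 against vehicle and 5 against OLA, all to the left of 0.

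Averaged over the presence of BTC, OLA was not associated with a detectable change. No member was called against vehicle by limma, edgeR or DESeq2, none had an unadjusted p under 0.05 by limma, and 0 of all genes were called (2.00% at unadjusted p under 0.05). The 5 smallest p-values belonged to IFI27 (0.58, 95% interval -0.02 to 1.18), IFI44L (0.45, -0.08 to 0.98), SP100 (0.28, -0.10 to 0.65), IFIT3 (-0.35, -0.87 to 0.16) and XAF1 (0.34, -0.16 to 0.85), all with a limma adjusted p of 1. IFI27 rested on 0 to 22 reads a library, and the IFI44L difference was highest in experiment 1 (1.42), where it had 5 to 53 reads. The intervals of the well-measured members were narrow, such as -0.12 to 0.31 for PSMB9, -0.25 to 0.23 for HLA-B and -0.39 to 0.19 for IFITM2. A p that misses the threshold does not show that OLA and vehicle acted alike.

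BTC likewise gave no called member by limma, edgeR or DESeq2, averaged over the pretreatments. None had an unadjusted p under 0.05 by limma, and of all genes 0 were called and 4.02% had one. The 5 smallest p-values were those of IRF7 (-0.42, 95% interval -0.88 to 0.04), ADAR (-0.26, -0.55 to 0.04), PSMB8 (-0.28, -0.62 to 0.05), OAS1 (0.32, -0.15 to 0.79) and IFITM3 (0.15, -0.07 to 0.36), each with a limma adjusted p of 0.994. IFIT1, at 8.06 ± 7.36 CPM (SD, n = 15) without and 10.1 ± 8.93 with BTC, differed by 0.27 (-0.15 to 0.70).

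In comparisons of 5 libraries against 5, 1 member passed: IFITM2 with DHA against vehicle in the presence of BTC. Its levels were 124, 75.9, 126, 126 and 176 CPM in Veh+BTC 1 to 5 and 48.4, 68.0, 106, 68.6 and 69.9 CPM in DHA+BTC 1 to 5. The DHA+BTC library was the lower one in 5 of 5 experiments, and the groups overlapped only through experiments 2 and 3. These groups hold Veh+BTC 1, Veh+BTC 2 and DHA+BTC 1, the libraries closest to another experiment, and the shallow DHA+BTC 4 and DHA+BTC 5. The comparison was not repeated without any of these. The difference was -0.79 (95% interval -1.20 to -0.37, limma adjusted p = 0.0231), in a comparison that called 3.55% of all genes. Without BTC it was -0.43 (95% interval -0.84 to -0.02, limma adjusted p = 0.313), from 69.5, 89.5, 174, 134 and 99.2 CPM in Veh+Veh 1 to 5 to 74.8, 87.8, 77.2, 87.9 and 72.1 CPM in DHA+Veh 1 to 5. The difference between both was -0.36 (95% interval -0.94 to 0.22, limma adjusted p = 0.983), so the IFITM2 response was not shown to differ with BTC. Without BTC 1.54% of all genes were called and no member. DHA against OLA called no member without BTC (3.27% of all genes) or with it (1.72%). OLA against vehicle called none either, with 0 members at an unadjusted p under 0.05 without BTC (3.09% of all genes) and 4 with it (6.9%). For BTC against vehicle, with 0 calls, those numbers were 4 after vehicle (10.2%), 2 after OLA (1.98%) and 0 after DHA (4.16%). The single call was lost with each other scaling, edgeR and DESeq2.

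None of the 3 interaction comparisons, which test whether a fatty acid altered the BTC response, called a member by limma, edgeR or DESeq2. At an unadjusted p under 0.05 there were 0 members for DHA against vehicle (3.48% of all genes), 3 for OLA against vehicle (8.45%) and 0 for DHA against OLA (3.78%). Those 3 were IFI44 (1.27), PSMB8 (1.09) and IRF7 (1.15), each with a limma adjusted p of at least 0.584. The PSMB8 value was positive in 5 of 5 experiments. All 3 values include the library Veh+BTC 1, where IRF7 was at 0.285 CPM against 9.59 CPM in Veh+Veh 1. IFI44 was at 3.14 against 12.1 CPM there and PSMB8 at 35.6 against 132 CPM. The interactions were not repeated without that library. PSMB8 had 132, 78.6, 233, 243 and 159 CPM in Veh+Veh 1 to 5 and 35.6, 79.3, 136, 252 and 56.7 CPM in Veh+BTC 1 to 5, so that experiments 1, 3 and 5 were lower with BTC, and 113, 75.4, 134, 144 and 197 CPM in OLA+Veh 1 to 5 against 118, 138, 214, 271 and 91.2 CPM in OLA+BTC 1 to 5, lower only in experiment 5.

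Other genes of the same pathways gave mixed directions with DHA. Of 27 tested genes of sensing and interferon signalling, 0 were called against vehicle by limma and 4 had an unadjusted p under 0.05. Among them were TICAM1, the adaptor of TLR3 (0.74, limma adjusted p = 0.0531), and IRF3 (-0.47, 0.136). Against OLA, 2 of 27 were called (7.41%, against 11.4% of all genes), 1 lower and 1 higher, the latter being TICAM1 (0.76, limma adjusted p = 0.0444). The median difference of the list against vehicle was 0.01, against -0.13 for all genes.

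Of 51 further interferon-induced genes tested, DHA against vehicle gave 2 that rose and 4 that fell (11.8% called), near the 10.7% of all genes. ISG20, an exonuclease that degrades RNA, rose from 34.4 ± 21.0 CPM (SD, n = 10) to 67.7 ± 41.2 (0.96, limma adjusted p = 0.00248), and ZC3HAV1, which binds viral RNA rich in CpG, rose from 144 ± 64.0 to 247 ± 103 CPM (0.80, 0.0119). SLFN11 fell from 17.7 ± 9.03 to 11.1 ± 7.65 CPM (-0.81, 0.00894) and the guanylate-binding protein GBP1 from 26.1 ± 15.3 to 16.3 ± 10.9 CPM (-0.73, 0.0167). The other 2 lower genes were MX2 (-1.06, limma adjusted p = 0.022) and DTX3L (-0.52, 0.0233), the ubiquitin ligase partner of PARP9. In this list 42 of 51 differences were negative, with a median of -0.17, beside 66.4% negative and a median of -0.13 over all genes.

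Of 31 further antigen presentation genes tested, 2 were called with DHA against vehicle (6.45%, against 10.7% of all genes), and both were higher (2.33% of all genes were). PSMB7, a constitutive proteasome subunit, rose from 550 ± 135 CPM (SD, n = 10) without fatty acid to 865 ± 215 with DHA (0.65, limma adjusted p = 0.000863). CTSS, the protease cathepsin S of class II presentation, rose from 8.44 ± 5.13 to 21.5 ± 11.7 CPM (1.31, 0.00231). Both were higher in 5 of 5 experiments. PSMB7 and the immunoproteasome subunit PSMB9 thus had differences of opposite sign with DHA, and the PSMB9 call was lost with both other scalings, edgeR and DESeq2. The other proteasome subunits of this list, PSMB5, PSMB6 and PSMB10, were not called against vehicle. Against OLA, 4 were called (11.4% of all genes were), of which 3 were higher (CTSS, PSMB7 and MICB) and 1 was lower (CIITA, the class II transactivator, -0.97, limma adjusted p = 0.0487).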

How the data were processed

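The authors deposited 1 table of CPM values for 61597 genes in 30 libraries made with a QuantSeq 3′ mRNA kit, per the labels' protocols, each scaled to the same total. STAR 2.5.3a and HTSeq 0.6.0 are named in the submitters' processing notes. For the genome build, annotation and strand setting: not given in the sources used here. Symbols were matched for 61444 identifiers (99.8%). CPM steps gave whole reads for 100% of values, within 0.01 read.

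limma 3.58.1 (R 4.3.3, trend) was fitted to log2(CPM + 1) for the 15137 genes that reached 1 CPM in 5 libraries, with group and experiment as terms. Tests were two-sided, with Benjamini-Hochberg adjustment over all genes and calls at adjusted p under 0.05. Differences and folds are on that log scale, which understates changes of low genes. The averaged comparisons take the 2 libraries of an experiment and arm as separate. The experiment is the label's cohort. All 75 pairs of libraries of an experiment had deviations correlated above 0.1 (lowest 0.119, median 0.507), so the block was kept. The labels do not say whether experiments were separate passages, and p-values cover only the variation among these cultures of 1 line. The script was tested on simulated data.

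The members and the lists were chosen with earlier results of these data known. Members called were described, or the 5 of smallest p where fewer than 5 were called, and up to 4 genes of each other list. Alternatives were other pseudocounts, filters, scalings, edgeR 4.0.16 and DESeq2 1.42.0 on the recovered reads, no replicate block, libraries left out or averaged, and only the groups compared. Promoters and transcripts came from RefSeq and GENCODE 29 and served no expression value. Values of some genes in the other lists are not reported here.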

Additional observations from a re-analysis of the deposited data

Results flagged for a closer look

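Within groups of 5 libraries, 38 of 198 combinations of a member and a group had 1 library far from the other 4, by Dixon's test. For normally distributed values chance gives about 1 in 20 (5%), or 9.9 here, and groups share their experiments, so the combinations are not independent. The test was run on CPM, which for low genes hold many values of 0, so the 38 cannot be judged against 9.9. IFITM1 in Veh+BTC had no read in any library and could not be flagged. The share flagged over all genes was not counted, and 71.4% of all genes differed between experiments, so the 38 are not a result particular to the members. A group with no read in 4 libraries is flagged by any read in the remaining library. Of the 38, 23 were in experiment 1, 3 in experiment 2, 2 in experiment 3, 8 in experiment 4 and 2 in experiment 5.

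IFI6 was highest in Veh+Veh 1 at 1.05 CPM (nearest 0) and OLA+Veh 1 at 1.34 CPM (nearest 0). IFI44 was highest in Veh+Veh 1 at 12.1 CPM (nearest 2.28), OLA+Veh 1 at 8.31 CPM (nearest 1.18), OLA+BTC 1 at 11.3 CPM (nearest 4.02) and DHA+BTC 1 at 10.4 CPM (nearest 2.16). IFI44L was highest in Veh+Veh 1 at 5.58 CPM (nearest 0.824), OLA+BTC 1 at 11.3 CPM (nearest 1.42), DHA+Veh 1 at 6.38 CPM (nearest 1.3) and DHA+BTC 1 at 8.2 CPM (nearest 1.24). IFIT1 was highest in OLA+Veh 1 at 21.7 CPM (nearest 7.07). IFIT2 was highest in Veh+Veh 1 at 11.8 CPM (nearest 3.57). IFIT3 was highest in Veh+BTC 1 at 40.2 CPM (nearest 14.9), OLA+BTC 1 at 63.7 CPM (nearest 16.4), DHA+Veh 1 at 66.5 CPM (nearest 19.2) and DHA+BTC 1 at 56 CPM (nearest 16.4). IFITM1 was highest in DHA+BTC 1 at 0.273 CPM (nearest 0). MX1 was highest in DHA+BTC 1 at 20.5 CPM (nearest 8.02). OAS2 was highest in DHA+BTC 1 at 19.4 CPM (nearest 6.49). OAS3 was highest in OLA+BTC 1 at 83.3 CPM (nearest 54.3). IFIH1 was highest in DHA+BTC 1 at 6.01 CPM (nearest 1.08). XAF1 was highest in Veh+Veh 1 at 11.3 CPM (nearest 3.3). PARP9 was highest in DHA+BTC 1 at 41 CPM (nearest 5.93).

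ISG15 was lowest in Veh+BTC 2 at 66.2 CPM (nearest 202) and OLA+BTC 2 at 58.7 CPM (nearest 166). EIF2AK2 was highest in Veh+BTC 2 at 64.3 CPM (nearest 23.7).

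IFITM1 was highest in Veh+Veh 3 at 1.56 CPM (nearest 0.105). B2M was lowest in DHA+BTC 3 at 2260 CPM (nearest 5090).

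IFI6 was highest in DHA+Veh 4 at 3.44 CPM (nearest 0.303). IFI35 was highest in DHA+Veh 4 at 65.9 CPM (nearest 29.2). BST2 was highest in Veh+BTC 4 at 662 CPM (nearest 350). TAP1 was highest in Veh+BTC 4 at 101 CPM (nearest 49.3) and OLA+BTC 4 at 113 CPM (nearest 62). HLA-C was highest in Veh+BTC 4 at 125 CPM (nearest 41.1), OLA+BTC 4 at 161 CPM (nearest 67.8) and DHA+Veh 4 at 142 CPM (nearest 50.6).

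HLA-C was highest in OLA+Veh 5 at 79 CPM (nearest 41.3). B2M was highest in Veh+BTC 5 at 9120 CPM (nearest 4290).

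The values of IFI6 and IFITM1 rest on a few reads. IFI44, IFI44L and IFIT3 each stood apart in 4 groups, all through experiment 1.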

How the results depend on the processing

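All called differences stayed negative under the alternatives run, 48 at most for a member. The number of members called did not hold for DHA. Against vehicle it was 4, and it was 1 with median-of-ratios scaling, quantile normalization, edgeR, DESeq2, only the groups compared, or libraries averaged within an experiment, 0 without the 3 shallowest libraries, 2 without the 3 libraries closest to another experiment (an alternative chosen after seeing the data), and 1 to 4 when an experiment or library was left out. Against OLA it was 5, and it was 1 with median-of-ratios scaling, DESeq2, averaged libraries or without the 3 shallowest libraries, 2 with quantile normalization, 0 with edgeR, and 0 to 7 when an experiment or library was left out. The single call of a 5 against 5 comparison became 0 with median-of-ratios scaling, quantile normalization, edgeR or DESeq2. Without the replicate block, 0 members were called against vehicle, 0 against OLA and 0 in 5 against 5 comparisons, and calls over all genes fell from 1621 to 104 and from 1719 to 68. The counts for OLA, BTC and the interactions were 0 throughout. Between experiments 26 to 31 members were called when an experiment or library was left out, and 29 to 31 with another pseudocount, filter, scaling or tool. The causes were not tested. Depth limits IFI6, IFI27, IFI44, IFI44L, IFIH1, XAF1 and IFITM1, whose levels lie at or under the 2.41 CPM that a count of 0 allows in the smallest library for most libraries.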
